A study of Caenorhabditis elegans with 18 samples.

Results

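The genes described here are 8 members of the heme-responsive gene (hrg) class of Caenorhabditis elegans, namely hrg-1, hrg-4, hrg-6, hrg-7, hrg-11.2, hrg-11.3, hrg-11.4 and hrg-13. They were chosen by name, with earlier results of these data known. Each was read from its only probe set with a single gene symbol, out of 25478 genes named on the array. The array named 13 hrg genes in all, and values of the other 5 (hrg-3, hrg-5, hrg-9, hrg-10 and hrg-14) are given beside them.

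Worms of the wild-type strain N2 spent 48 h at 20 °C in soil polluted with cadmium (310 mg/kg), lead (2700 mg/kg) and zinc (4200 mg/kg). Control worms met these metals too. The nZVI groups met the same soil with added nZVI, which stands for nanoscale zero-valent iron, fine metallic particles that are mixed into polluted ground to bind metals. Worms entered the soil as last-stage larvae and young adults, were fed the bacterium OP50, and gave RNA of whole animals. The 6 groups were nZVI soil at 0 days, 14 days and 4 months and control soil at 0 days, 14 days and 4 months, with 3 arrays each. The labels do not say from what event these times are counted.

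C. elegans cannot make heme, the iron-containing cofactor of cytochromes, catalases, peroxidases and globins, and takes all of it from its food. The intestine imports dietary heme and passes it on to other tissues. The hrg class was named for transcripts that respond to the supply of heme: hrg-1 and hrg-4 encode heme transporters whose transcripts are induced when heme is scarce.

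Values are log2 signals, so a difference of 1 is a doubling of signal, and errors are SD over 3 arrays for levels and SE for differences. A gene was called where limma gave a Benjamini-Hochberg adjusted p under 0.05 over 28387 probe sets. Only called genes are said to have risen or fallen. Levels of different genes come from different probes and are not set against each other. The labels do not say whether the arrays of a group came from separate cultures, so p-values measure the spread between these arrays, which may be technical. In whole worms, fewer cells of a type and less RNA per cell cannot be told apart.

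The 18 arrays had medians of 3.85 to 3.99 and correlated within groups at 0.970 to 0.996. Control arrays 1 and 3 at 4 months had the narrowest signals, with interquartile ranges of 3.80 and 3.70 against at least 4.07 on every other array. The control arrays at 4 months (0.975 to 0.981) and array 2 of nZVI soil at 14 days (0.981) had the lowest mean correlations with their own group, against at least 0.987 on the other arrays. Markers of the tissues of a whole worm were all well above the array medians: the mean log2 signal of 8 markers ran over the arrays from 7.46 to 8.89 for intestine, 6.56 to 7.89 for hypodermis, 7.64 to 9.23 for germline, 7.96 to 9.21 for neurons and 9.79 to 10.5 for muscle.

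Of the 8 genes, 6 changed with nZVI at one or more times, in opposite directions. The hrg-11 genes and hrg-7 were higher in nZVI soil, and hrg-6 and hrg-4 were lower. At 0 days 5 of the 8 were called, 3 risen (hrg-7, hrg-11.3 and hrg-11.4) and 2 fallen (hrg-4 and hrg-6), where 16.0% of all probe sets were called, 8.22% higher and 7.74% lower. At 14 days 4 were called, 3 risen (hrg-11.2, hrg-11.3 and hrg-11.4) and 1 fallen (hrg-6), against 8.99% of all probe sets, 3.60% higher and 5.39% lower. At 4 months 4 were called, all risen (hrg-7 and the 3 hrg-11 genes), against 7.08% of all probe sets, 4.77% higher and 2.30% lower. The median log2 fold change of the 8 genes was 0.62, 0.43 and 0.71 at 0 days, 14 days and 4 months, and that of all probe sets was -0.01, 0.04 and -0.03. Averaged over the times 7 of the 8 were called, 5 risen and 2 fallen, with 20.1% of all probe sets called; hrg-1 was the exception (0.24, adjusted p = 0.339). The 3 nZVI and 3 control signals did not overlap for 7 genes at 0 days, 4 at 14 days and 6 at 4 months, against 34.9%, 27.5% and 22.3% of all probe sets. The 8 genes were chosen with earlier results of these data known, so these counts may partly reflect which genes were picked. Of the other 5 hrg genes, 0 were called between the soils at each of the 3 times. Signals of hrg-3 and hrg-5 were dim, under the median of their own array on every array. Those of hrg-14 were above it on only 1 array. For these genes the lack of calls may reflect dim signals, while hrg-9 and hrg-10 were above the median on every array.

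**Figure D1:**
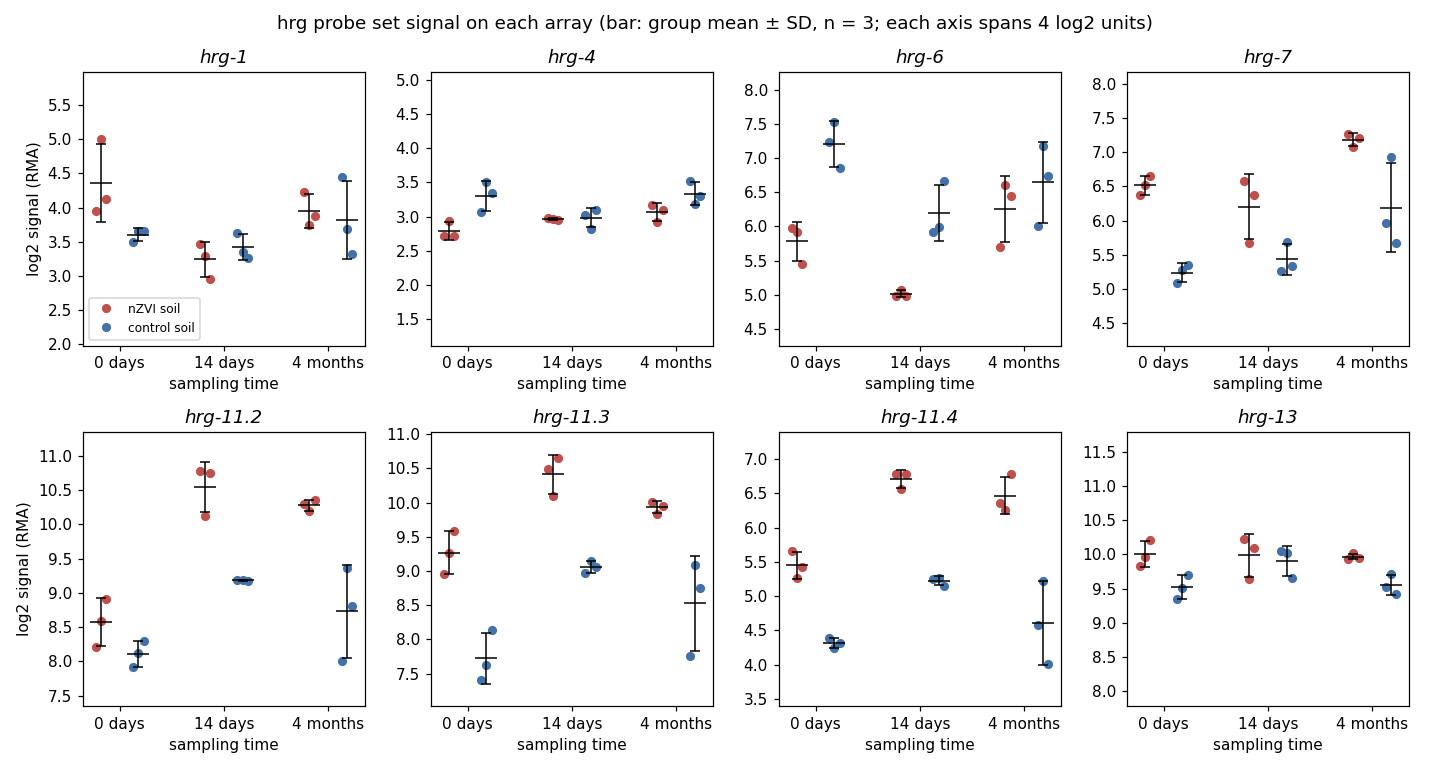
Log2 signal (vertical axes, each spanning 4 log2 units) of the 8 hrg genes on each array, by sampling time (horizontal axis), with nZVI soil to the left of control soil and bars for the group mean ± SD of 3 arrays. For hrg-11.3 and hrg-11.4 the nZVI points lie above the control points at every time, and for hrg-6 the nZVI points lie below the control points at 0 days and 14 days.

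**Figure D2:**
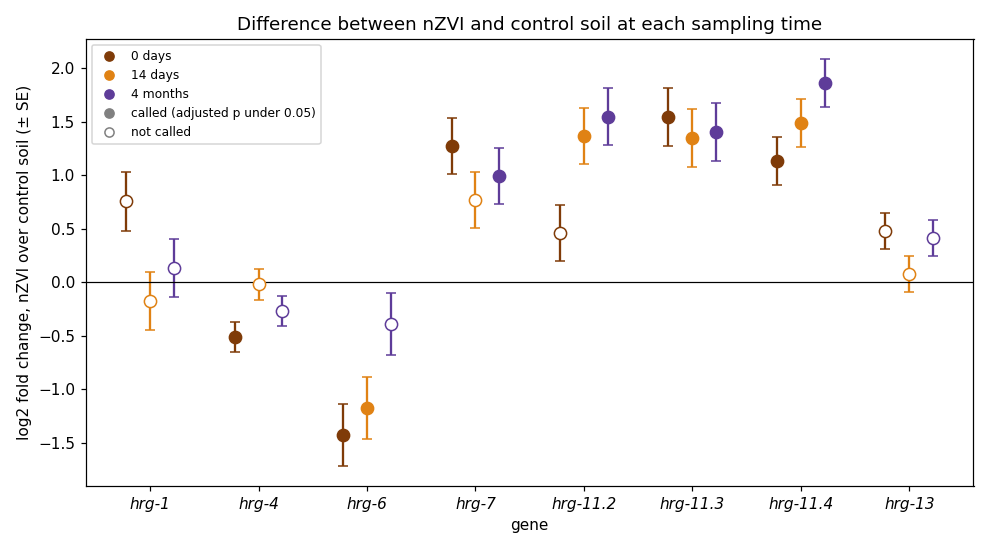
Log2 fold change of nZVI over control soil for each hrg gene at 0 days, 14 days and 4 months, with SE from the limma fit and filled points where the adjusted p was under 0.05. Values run from -1.42 (hrg-6, 0 days) to 1.86 (hrg-11.4, 4 months).

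Heme import is the first step of the pathway. hrg-4 encodes a transporter of the intestinal cell surface that brings in heme from the gut. Its log2 signals at 0 days were 2.72, 2.94 and 2.71 in nZVI soil, against 3.06, 3.50 and 3.35 in control soil. All 3 nZVI signals were below all 3 control signals, a difference of -0.51 ± 0.14 (adjusted p = 0.0212), or 1.42-fold lower. These signals were dim, under the median of their own array on every one of the 18 arrays, and the probe set was removed by a filter on dim signals. Among the arrays of this time the call did not survive leaving out the second (-0.41, adjusted p = 0.103) or the third (-0.49, 0.0621) control one, or the first (-0.47, 0.0616) or the third (-0.47, 0.0796) nZVI one, nor a fit to only these groups (0.0563).

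At 14 days the hrg-4 signals were 2.98, 2.97 and 2.95 in nZVI soil, against 3.03, 2.83 and 3.10 in control soil, and they overlapped. The difference of -0.02 had a 95% confidence interval of -0.32 to 0.28. The effects at 14 days and 0 days differed by 0.49 ± 0.20, which was not called (adjusted p = 0.247). At 4 months they were 3.18, 2.92 and 3.10 in nZVI soil, against 3.52, 3.19 and 3.31 in control soil. The ranges did not overlap there, but the difference of -0.27 ± 0.14 missed the threshold (adjusted p = 0.269).

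hrg-6 belongs to the same family as hrg-4. In the RefSeq gene table it follows hrg-5, hrg-4 and the gene F36H1.15 in order along the chromosome, and probe sets of such related genes may bind each other's transcripts. At 0 days its log2 signals were 5.98, 5.91 and 5.45 in nZVI soil, against 7.24, 7.53 and 6.85 in control soil. No nZVI array reached the lowest control array, and hrg-6 fell by 1.42 ± 0.29 in nZVI soil (2.68-fold lower, adjusted p = 0.00271).

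Both soils gave lower hrg-6 signals at 14 days than at 0 days: 4.99, 5.07 and 4.99 in nZVI soil, against 5.92, 5.99 and 6.66 in control soil. The change from 0 days was called in control soil (-1.01 ± 0.29, adjusted p = 0.0317) but not in nZVI soil (-0.76 ± 0.29, 0.119). At 14 days the soils again did not overlap, and hrg-6 was 2.26-fold lower in nZVI soil (-1.17 ± 0.29, adjusted p = 0.0149). That call was lost without control array 3 (-0.94, 0.0842) or nZVI array 1 (-1.16, 0.0549). At 4 months the signals were 5.70, 6.60 and 6.45 in nZVI soil, against 6.01, 7.18 and 6.74 in control soil. They overlapped, and the difference of -0.39 was not called (95% confidence interval -1.003 to 0.22, adjusted p = 0.447). In all 3 pairs of arrays with the same replicate number the nZVI signal was the lower one, and with that number as a block the adjusted p was 0.173. hrg-5, the family member next to hrg-4, was not called at any time (-0.09, 0.18 and -0.32, adjusted p = 0.774, 0.587 and 0.213), and its signals were under the array median on all 18 arrays.

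hrg-1 encodes a heme transporter of endosomes and lysosomes, which moves heme from these vesicles into the cytoplasm. Its log2 signals at 0 days were 3.95, 5.01 and 4.13 in nZVI soil, against 3.49, 3.66 and 3.66 in control soil. All nZVI signals were above the control signals, and nZVI array 2 stood above the other nZVI arrays. The difference of 0.76 ± 0.27 missed the threshold (adjusted p = 0.0700); it was 0.43 without nZVI array 2, and it passed without nZVI array 1 (0.96, 0.0367), without control array 1 at 4 months (0.76, 0.0331) and with the replicate number as a block (0.76, 0.0217).

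The later times showed no called difference for hrg-1. At 14 days its signals were 3.47, 3.30 and 2.96 in nZVI soil, against 3.63, 3.35 and 3.27 in control soil (-0.18 ± 0.27, adjusted p = 0.805). At 4 months they were 4.23, 3.75 and 3.87 in nZVI soil, against 4.45, 3.69 and 3.33 in control soil, a difference of 0.13 with a 95% confidence interval of -0.44 to 0.71. hrg-1 was above its array's median on only 5 of 18 arrays.

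hrg-7 encodes a secreted protein of the aspartic protease family, made in the intestine and known to signal to neurons that heme is short. Its log2 signals at 0 days were 6.37, 6.52 and 6.65 in nZVI soil, against 5.08, 5.27 and 5.35 in control soil. The groups were far apart beside their spread, and hrg-7 was 2.42-fold higher in nZVI soil (1.28 ± 0.26, adjusted p = 0.00288).

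At 14 days the hrg-7 signals were 6.57, 5.66 and 6.37 in nZVI soil, against 5.26, 5.69 and 5.34 in control soil. nZVI array 2 was the low one and fell within the control range. The difference of 0.77 ± 0.26 was not called (adjusted p = 0.0817), and it was called without that array (1.04, 0.0147), without control array 2 at 4 months (0.77, 0.0165) or with array weights (0.83, 0.00102).

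At 4 months the signals were 7.26, 7.08 and 7.21 in nZVI soil, against 5.97, 6.92 and 5.68 in control soil, where array 2 was far above the other control arrays. hrg-7 was 1.99-fold higher in nZVI soil (0.99 ± 0.26, adjusted p = 0.0295), and the signals did not overlap. The call did not hold without control array 1 (0.88, 0.116) or 3 (0.74, 0.161), nor without nZVI array 1 (0.96, 0.0801), 2 (1.05, 0.0671) or 3 (0.98, 0.0889), nor in a fit to only these groups (0.99, 0.139). Without control arrays 1 and 3 together, the narrow arrays, the difference was 0.26 (0.945).

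Of the hrg-11 genes, hrg-11.3 and hrg-11.4 were called higher at all 3 times and hrg-11.2 at 14 days and 4 months. Those called at all 3 times are 2 of the 8 genes, where 1.45% of all probe sets were called the same way at all 3 times. The 3 hrg-11 genes carry a shared class name, and their probe sets were tested separately.

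hrg-11.3 had log2 signals of 8.95, 9.27 and 9.58 in nZVI soil at 0 days, against 7.41, 7.62 and 8.14 in control soil. At 14 days it had 10.50, 10.09 and 10.64 in nZVI soil, against 8.97, 9.15 and 9.06 in control soil. At 4 months it had 10.01, 9.83 and 9.95 in nZVI soil, against 7.75, 9.09 and 8.75 in control soil. Every nZVI array was above every control array of the same time, although control array 1 at 4 months lay far below the other control arrays of that group.

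The rise of hrg-11.3 was 1.54 ± 0.27 at 0 days (2.91-fold, adjusted p = 8.28e-04), 1.35 ± 0.27 at 14 days (2.55-fold, 0.00350) and 1.40 ± 0.27 at 4 months (2.64-fold, 0.00494). The change in the nZVI effect between 14 days and 0 days was -0.19 with a 95% confidence interval of -1.001 to 0.62, and between 4 months and 0 days it was -0.14 (-0.95 to 0.67).

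hrg-11.4 had log2 signals of 5.66, 5.27 and 5.42 in nZVI soil at 0 days, against 4.38, 4.25 and 4.32 in control soil. At 14 days it had 6.79, 6.56 and 6.79 in nZVI soil, against 5.25, 5.27 and 5.15 in control soil. At 4 months it had 6.36, 6.26 and 6.78 in nZVI soil, against 4.58, 5.23 and 4.01 in control soil. The groups did not overlap at any time. The rise was 1.13 ± 0.22 at 0 days (2.19-fold, adjusted p = 0.00213), 1.49 ± 0.22 at 14 days (2.81-fold, 3.15e-04) and 1.86 ± 0.22 at 4 months (3.63-fold, 1.07e-04).

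hrg-11.2 at 0 days had log2 signals of 8.21, 8.59 and 8.91 in nZVI soil, against 7.92, 8.12 and 8.30 in control soil. These overlapped, and the difference of 0.46 ± 0.26 was not called (95% confidence interval -0.10 to 1.01, adjusted p = 0.275). At 14 days it had 10.78, 10.13 and 10.75 in nZVI soil, against 9.19, 9.19 and 9.18 in control soil. At 4 months it had 10.29, 10.19 and 10.35 in nZVI soil, against 8.01, 9.37 and 8.81 in control soil. At both later times the groups were fully apart, with rises of 1.37 ± 0.26 (2.58-fold, adjusted p = 0.00255) and 1.55 ± 0.26 (2.93-fold, 0.00229).

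The calls of the hrg-11 genes between the soils held without any single array. In a fit to only the 4-month groups hrg-11.2 (1.55, adjusted p = 0.0574) and hrg-11.3 (1.40, 0.0747) were not called. Without control arrays 1 and 3 of that time together, hrg-11.4 was still called, but hrg-11.2 (0.91, adjusted p = 0.187) and hrg-11.3 (0.84, 0.279) were not, with a single control array left whose spread was taken from the other groups.

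hrg-13 was called at no single time. Its log2 signals at 0 days were 9.84, 9.97 and 10.21 in nZVI soil, against 9.35, 9.51 and 9.71 in control soil, and at 4 months 9.94, 10.02 and 9.95 in nZVI soil, against 9.53, 9.71 and 9.43 in control soil. The groups did not overlap at either time, with differences of 0.48 ± 0.17 (adjusted p = 0.0625) and 0.42 ± 0.17 (0.146). At 14 days they were 10.23, 9.64 and 10.10 in nZVI soil, against 10.05, 10.02 and 9.65 in control soil, and overlapped (0.08 ± 0.17, 0.863). The difference at 0 days passed with array weights (0.0236), with median centring (0.0400), with the dim filter (0.0480), with a trended and robust spread (0.0448) and without nZVI array 2 at 14 days (0.0306). Averaged over the times hrg-13 rose by 0.33 ± 0.10 (0.0242), a call lost without control array 1 at 0 days (0.30, 0.0550) or 3 at 14 days (0.28, 0.0532), or without nZVI array 3 at 0 days (0.29, 0.0554) or 1 (0.29, 0.0574) or 3 (0.31, 0.0520) at 14 days. Without control arrays 1 and 3 at 4 months together the averaged difference of hrg-13 was 0.27.

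Averaged over the 3 times, the remaining called values were 1.49 ± 0.13 for hrg-11.4 (adjusted p = 2.69e-07), 1.43 ± 0.16 for hrg-11.3 (3.83e-06), 1.13 ± 0.15 for hrg-11.2 (3.73e-05), 1.01 ± 0.15 for hrg-7 (9.85e-05), -0.996 ± 0.17 for hrg-6 (3.15e-04) and -0.27 ± 0.08 for hrg-4 (0.0287). That of hrg-4 was lost when arrays were centred on their medians (-0.23, 0.0671) and without any one of 8 arrays, where it was -0.23 to -0.26 (0.0513 to 0.0637): control array 2 at 0 days, 1 or 3 at 14 days or 1 at 4 months, and nZVI array 1 or 3 at 0 days, 3 at 14 days or 2 at 4 months. Without control arrays 1 and 3 at 4 months together the averaged difference of hrg-4 was -0.22.

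The share of each gene's variation that lay between soils, between times and between arrays of a group set the genes apart. Shares were not scaled for the number of groups or arrays that each part compares. A part with more of these takes a larger share even without an effect, so different parts are not on the same scale. For hrg-11.4 the soil held 66.8% of the sum of squares over the 18 arrays and for hrg-11.3 it held 59.4%. For hrg-11.2 time held 48.0% and the soil 35.9%. hrg-7 had 50.6% between soils and 30.9% between times, and hrg-6 had 43.7% and 29.3%. For hrg-1 6.24% lay between soils, and 40.6% lay between arrays of the same group. The interaction of soil and time held at most 19.6% (hrg-4) and was 0.188% for hrg-11.3.

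**Figure D3:**
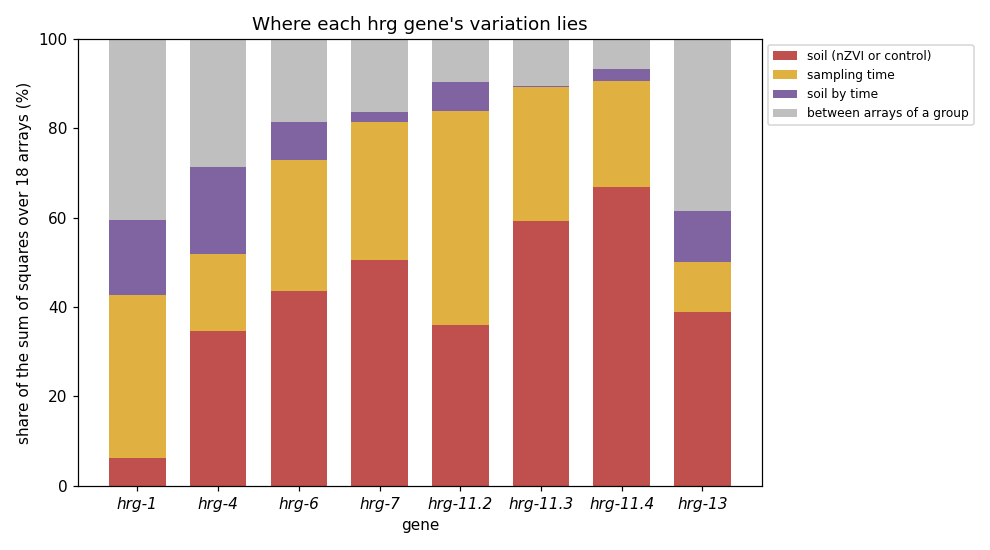
Share of each hrg gene's sum of squares over 18 arrays (vertical axis, %) that lies between soils, between sampling times, in the soil by time interaction, and between arrays of the same group. The soil share is largest for hrg-11.4 (66.8%) and smallest for hrg-1 (6.24%). Parts are not scaled for the number of groups or arrays that they compare.

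Whether the nZVI effect itself changed between times was tested as a difference of differences. With limma 0 of the 8 genes were called in each of the 3 tests, where 1.05% (14 days minus 0 days), 4.32% (4 months minus 0 days) and 1.36% (4 months minus 14 days) of all probe sets were called. At an unadjusted p under 0.05 the counts were 3, 3 and 0, and with array weights 1, 2 and 0. The largest was that of hrg-11.2, whose effect was greater by 1.09 ± 0.37 at 4 months than at 0 days (adjusted p = 0.109) and by 0.91 ± 0.37 at 14 days than at 0 days (0.248). Both were called with array weights (1.07, 0.0350, and 1.04, 0.0243), and the first also without control array 2 at 4 months (1.41, 0.0118). hrg-11.4 differed by 0.73 ± 0.32 between 4 months and 0 days (0.203), and was called with array weights (0.94, 0.0457) or without that control array (1.04, 0.0142). The effect of hrg-6 was closer to 0 at 4 months than at 0 days by 1.03 ± 0.41 (0.162), a value called with the replicate number as a block (0.0295) and without the same control array (1.299, 0.0431). The effect of hrg-1 differed by -0.93 ± 0.39 between 14 days and 0 days (0.251).

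Within each soil, the later times were set against 0 days and against each other. The 0-day arrays of a soil serve in both comparisons with 0 days, so these are not independent, and the values are given side by side.

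At 14 days against 0 days, the 3 hrg-11 genes rose in both soils. In nZVI soil 4 of the 8 genes were called, against 8.80% of all probe sets. hrg-11.2 rose by 1.98 ± 0.26 (adjusted p = 1.91e-04), hrg-11.4 by 1.26 ± 0.22 (0.00200) and hrg-11.3 by 1.14 ± 0.27 (0.0138), while hrg-1 fell by 1.12 ± 0.27 (0.0159). In none of the 4 did the signals of the 2 times overlap. The hrg-11.3 call was lost without nZVI array 1 (0.99, 0.0730) or 2 (1.14, 0.0501) at 0 days or 3 at 14 days (1.03, 0.0597), and the hrg-1 call without nZVI array 2 at 0 days (-0.79, 0.0982) or 3 at 14 days (-0.98, 0.0711) or in a fit to only these groups (0.0572).

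In control soil 4 genes were called at 14 days against 0 days, against 11.9% of all probe sets. hrg-11.3 rose by 1.33 ± 0.27 (adjusted p = 0.00617), hrg-11.2 by 1.07 ± 0.26 (0.0161) and hrg-11.4 by 0.91 ± 0.22 (0.0161), and hrg-6 fell by 1.01 ± 0.29 (0.0317). Again no signals overlapped. The hrg-11.2 call was lost without control array 1 (0.98, 0.0716) or 2 (1.07, 0.0577) at 0 days or 2 at 14 days (1.07, 0.0539), and the hrg-11.4 call without control array 2 at 0 days (0.87, 0.0677) or 1 (0.89, 0.05002) or 2 (0.88, 0.0592) at 14 days. That of hrg-6 was lost without control array 1 (-0.997, 0.0960) or 2 (-0.85, 0.141) at 0 days or 1 (-0.88, 0.115) or 2 (-0.91, 0.114) at 14 days.

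At 4 months against 0 days, 2 of the 8 genes were called in nZVI soil, hrg-11.2 (1.71 ± 0.26, adjusted p = 2.30e-04) and hrg-11.4 (1.02 ± 0.22, 0.00342), a share near the 22.2% of all probe sets. In control soil only hrg-7 was called (0.95 ± 0.26, 0.0292), against 9.71% of all probe sets. This hrg-7 call was lost without control array 1 (0.88, 0.104), 2 (0.97, 0.0708) or 3 (1.01, 0.0535) at 0 days or 2 at 4 months (0.59, 0.0738), with array weights (0.76, 0.0529) or in a fit to only these groups (0.141).

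At 4 months against 14 days, hrg-6 and hrg-7 rose in nZVI soil, by 1.23 ± 0.29 (adjusted p = 0.0135) and 0.98 ± 0.26 (0.0268), with 8.53% of all probe sets called. The hrg-6 call was lost without nZVI array 1 (1.22, 0.0573) or 3 (1.22, 0.0525) at 14 days or 2 (1.06, 0.0770) or 3 (1.13, 0.0561) at 4 months. The hrg-7 call was lost without nZVI array 2 (0.71, 0.0758) or 3 (1.06, 0.0580) at 14 days, or without array 1 (0.94, 0.0794), 2 (1.03, 0.0668) or 3 (0.97, 0.0752) at 4 months. In control soil hrg-7 alone was called (0.76 ± 0.26, 0.0493), with 20.9% of all probe sets called. Its signals overlapped between these times, and the call held only where the array left out was control array 3 at 4 months or nZVI array 1 or 2 at 14 days. Without control array 2 at 4 months the difference was 0.39 (0.181).

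The order of the 6 group means was the same for hrg-11.3 and hrg-11.4: nZVI soil at 14 days, 4 months and 0 days, then control soil at 14 days, 4 months and 0 days. The means of hrg-11.3 were 10.41 ± 0.28, 9.93 ± 0.09, 9.27 ± 0.32, 9.06 ± 0.09, 8.53 ± 0.69 and 7.72 ± 0.38 in that order, a span of 6.44-fold. No neighbours in this order differed past the threshold. The means of hrg-11.4 were 6.71 ± 0.13, 6.47 ± 0.27, 5.45 ± 0.19, 5.22 ± 0.07, 4.61 ± 0.61 and 4.32 ± 0.07, a span of 5.26-fold. Only the step between nZVI soil at 4 months and nZVI soil at 0 days was called (1.02, adjusted p = 0.00342).

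For hrg-11.2 the order was nZVI soil at 14 days (10.55 ± 0.37) and 4 months (10.28 ± 0.08), control soil at 14 days (9.18 ± 0.01) and 4 months (8.73 ± 0.68), nZVI soil at 0 days (8.57 ± 0.35) and control soil at 0 days (8.11 ± 0.19). Only the step between nZVI soil at 4 months and control soil at 14 days was called (1.09, adjusted p = 0.0124). hrg-7 was highest in nZVI soil at 4 months (7.18 ± 0.09), 0 days (6.51 ± 0.14) and 14 days (6.20 ± 0.48), followed by control soil at 4 months (6.19 ± 0.65), 14 days (5.43 ± 0.23) and 0 days (5.24 ± 0.14). Its only called step was that between control soil at 4 months and 14 days.

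hrg-6 ran from 7.20 ± 0.34 in control soil at 0 days through control soil at 4 months (6.64 ± 0.59), nZVI soil at 4 months (6.25 ± 0.48), control soil at 14 days (6.19 ± 0.41) and nZVI soil at 0 days (5.78 ± 0.29) to nZVI soil at 14 days (5.02 ± 0.05). No step of it was called, nor any step of hrg-1, hrg-4 or hrg-13. hrg-1 had its highest mean in nZVI soil at 0 days (4.36 ± 0.57), then nZVI soil at 4 months (3.95 ± 0.25) and control soil at 4 months (3.82 ± 0.57), 0 days (3.60 ± 0.10) and 14 days (3.42 ± 0.19), with nZVI soil at 14 days lowest (3.24 ± 0.26). hrg-4 ran from control soil at 4 months (3.34 ± 0.17) and 0 days (3.30 ± 0.22) through nZVI soil at 4 months (3.07 ± 0.13), control soil at 14 days (2.99 ± 0.14) and nZVI soil at 14 days (2.97 ± 0.01) to nZVI soil at 0 days (2.79 ± 0.13). hrg-13 ran from nZVI soil at 0 days (10.00 ± 0.19), 14 days (9.99 ± 0.31) and 4 months (9.97 ± 0.04) to control soil at 14 days (9.91 ± 0.22), 4 months (9.55 ± 0.14) and 0 days (9.52 ± 0.18).

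Likeness of pattern was measured as the root mean square difference over the 18 arrays after each gene was centred on its mean, for members whose group means spanned at least 1 on the log2 scale. hrg-11.3, whose own root mean square deviation was 0.93, was nearest to irg-7, a gene of the infection response class (0.17), R09H10.5 (0.21) and nspg-10 (0.23). hrg-11.4 (own deviation 0.91) was nearest to nspg-10 (0.32), T25G12.6 (0.35) and irg-7 (0.35). hrg-11.2 (own deviation 0.94) was nearest to adt-3, a gene of the ADAMTS metalloprotease class (0.33), pqn-22 (0.34) and nspg-14 (0.34).

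Among the members, the 3 hrg-11 genes lay at 0.37 for hrg-11.2 with hrg-11.3, 0.40 for hrg-11.3 with hrg-11.4 and 0.44 for hrg-11.2 with hrg-11.4. hrg-4 and hrg-13, the members whose group means spanned least, also lay at 0.44. Yet 19242 probe sets, its own included, lay nearer to hrg-4 than hrg-13 did. For the hrg-11 pairs, in the order given, 8, 32 and 27 lay nearer to the first gene named. hrg-6 and hrg-11.3 were farthest apart (1.57). For hrg-6 (own deviation 0.75) the nearest genes were C14B1.3 (0.30), T13C5.6 (0.33) and bec-1, which encodes the autophagy protein Beclin (0.33). hrg-7 (own deviation 0.71) was nearest to exh-1 (0.40), acp-6 (0.40) and grl-7 (0.43). hrg-1 (own deviation 0.47) was nearest to K02G10.12 (0.29), rsu-1 (0.30) and Y47G6A.31 (0.31). These values describe arrays that share their soils and times.

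Other genes of heme trafficking were examined for nZVI against control soil, where 16.0%, 8.99% and 7.08% of all probe sets were called at 0 days, 14 days and 4 months. Of 7 such genes 6 were measured (hrg-3, hrg-5, hrg-9, hrg-10, mrp-5 and fecl-1). The only one called in these comparisons was mrp-5, which encodes the intestinal heme exporter and rose at 0 days (0.59 ± 0.16, adjusted p = 0.0178), where the importer hrg-4 fell. mrp-5 was not called at 14 days (0.03, 0.947) or 4 months (0.52, 0.0581). The list's median log2 fold change was -0.06, 0.01 and 0.01 at the 3 times. hrg-3, a secreted heme chaperone that carries heme to embryos, was at -0.19, -0.24 and -0.05 (0.401, 0.357 and 0.857). The heme trafficking genes hrg-9 and hrg-10, relatives of human TANGO2, were at -0.48 and 0.04 at 0 days (0.151 and 0.922), -0.32 and -0.02 at 14 days (0.472 and 0.966) and 0.07 and -0.35 at 4 months (0.892 and 0.232). The ferrochelatase-like fecl-1 was at -0.04, 0.36 and 0.18 (0.925, 0.268 and 0.590). Outside this list, hrg-14 was at -0.10, 0.28 and -0.25 (0.800, 0.443 and 0.441). Within control soil hrg-5 and hrg-14 rose, on dim signals, at 4 months against 14 days (0.49, 0.0291, and 0.72, 0.0123), where 20.9% of all probe sets were called.

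Proteins that carry heme are the users of what the importers bring in. The counts of their genes stand against the same 16.0%, 8.99% and 7.08% of all probe sets called at the 3 times, and several lie near or under these shares. Among 11 catalase and heme peroxidase genes 5 rose and 1 fell at 0 days, 1 rose at 14 days and 4 rose at 4 months. The peroxidase gene skpo-3 rose at all 3 times (1.38, 0.65 and 0.95, adjusted p = 5.73e-05, 0.0298 and 0.00457), and the catalase genes ctl-2 (1.00, 4.80e-04) and ctl-3 (-0.88, 0.0197) moved in opposite directions at 0 days. Of 34 globin genes 1 rose (glb-2, 0.79, 0.0177) and 1 fell (glb-1, -0.98, 1.48e-04) at 0 days, 5 fell at 14 days, among them glb-6 (-1.49, 0.00516), and glb-1 fell at 4 months (-0.53, 0.0328). Of 10 genes of mitochondrial heme proteins and heme A synthesis 2 rose at 0 days (cytb-5.1, 0.73, and cox-10, 0.60), none at 14 days and 1 at 4 months (cyc-2.2, 0.96). Of 7 soluble guanylate cyclase genes only gcy-37 was called, at 14 days (-0.53, 0.00910). The medians of these lists at 0 days, 14 days and 4 months were 0.55, 0.19 and 0.35 for catalases and peroxidases, 0.12, -0.29 and -0.01 for globins, 0.02, 0.10 and 0.02 for the mitochondrial genes and 0.07, -0.06 and -0.13 for the cyclases.

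**Figure D4:**
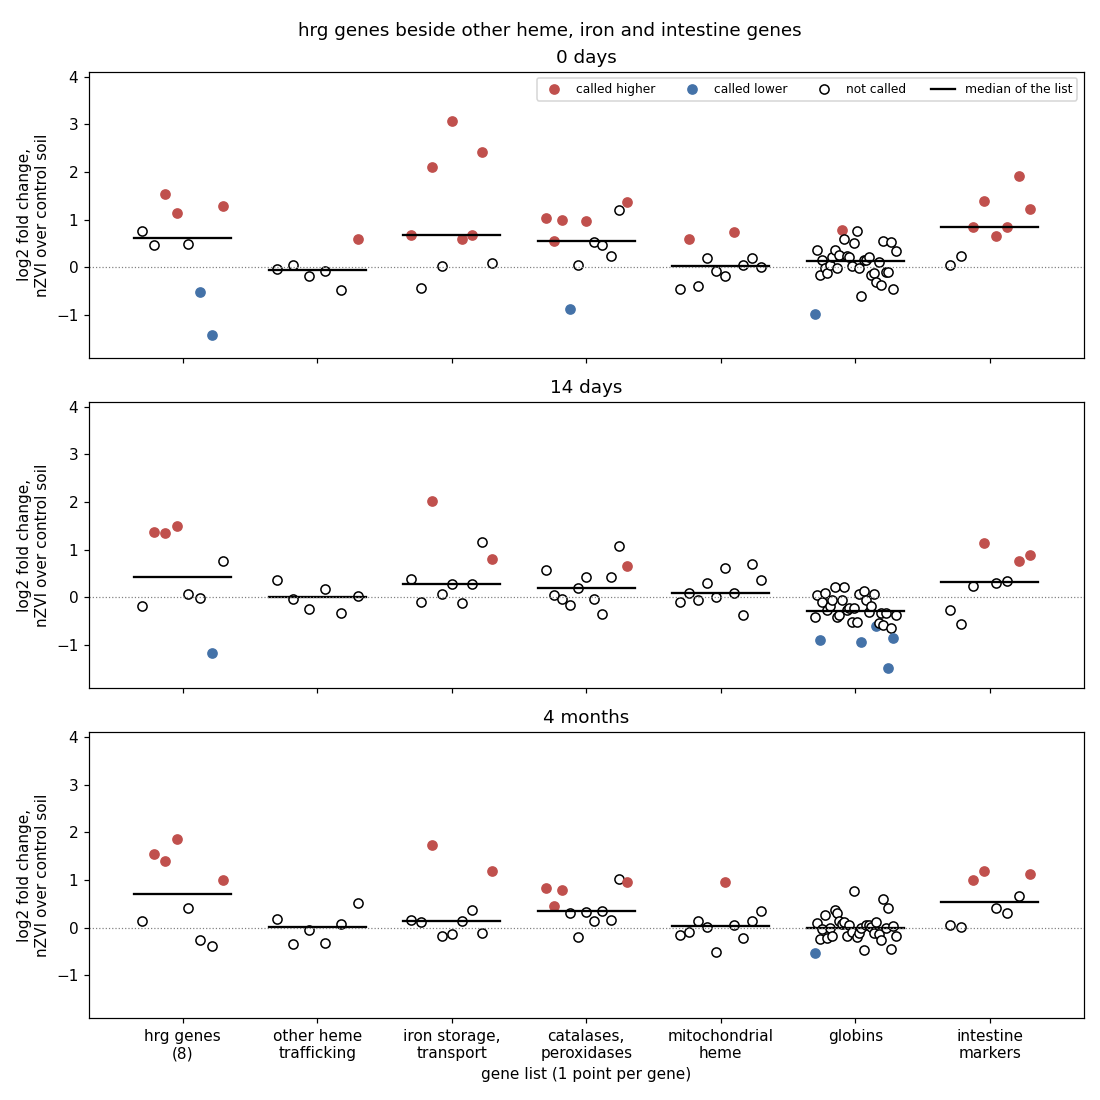
Log2 fold change of nZVI over control soil (vertical axis) for the genes of 7 lists (horizontal axis, 1 point per gene) at 0 days, 14 days and 4 months, with called genes filled and a line at each list's median. The 8 hrg genes spread on both sides of 0 at every time, and the other heme trafficking genes lie on both sides of 0 between -0.48 and 0.59, with 1 called gene at 0 days.

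Iron genes were called in larger number at 0 days than later, as were all probe sets (16.0%, 8.99% and 7.08% at the 3 times). Of 9 genes of iron storage and transport 6 rose at 0 days, 2 at 14 days and 2 at 4 months, with medians of 0.67, 0.29 and 0.14. The ferritin gene ftn-1 rose by 3.07 ± 0.24 at 0 days (adjusted p = 2.70e-07) and was at 0.28 (0.593) and -0.13 (0.785) at 14 days and 4 months. The ferroportin-like fpn-1.2 rose at all 3 times, by 2.097, 2.03 and 1.74 (5.88e-06, 1.31e-05 and 1.66e-04). The metal transporter gene smf-3 was at 0.09 (0.833) at 0 days and rose by 0.81 at 14 days (0.0149) and 1.19 at 4 months (0.00199). Whether the hrg genes differed from these lists was not tested.

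hrg-7 has known partners in the BMP-like DBL-1 pathway, whose ligand comes from neurons and promotes hrg-7 expression in the intestine. Of 8 genes of this pathway 4 rose at 0 days, where hrg-7 also rose: the receptor gene daf-4 (0.94 ± 0.20, adjusted p = 0.00349), the Smad gene sma-2 (0.68, 0.00597), the receptor gene sma-6 (0.67, 0.0143) and the ligand gene dbl-1 (0.59, 0.0290). None was called at 14 days, nor at 4 months, where hrg-7 was again called, with list medians of 0.50, -0.15 and 0.36 at the 3 times. Of all probe sets 16.0%, 8.99% and 7.08% were called at these times, so 0 of 8 at the later times lies near those shares. Within control soil hrg-7 rose at 4 months against 14 days, where all 8 pathway genes fell (median -0.86) and 20.9% of all probe sets were called. The hrg-7 signals overlapped there, and its call was lost without any one of 15 arrays. Without control array 2 at 4 months the hrg-7 difference was 0.39. hrg-7 also rose at 4 months against 0 days, where 3 of the 8 fell and 0 rose (median -0.53), with 9.71% of all probe sets called. That hrg-7 call was lost without any one of 4 arrays, with array weights and in a fit to only these groups. In nZVI soil hrg-7 rose at 4 months against 14 days, where 0 of the 8 were called (median -0.32), with 8.53% of all probe sets called. This hrg-7 call was lost without any one of 5 arrays. Whether hrg-7 and the pathway genes were linked was not tested. Between the soils, 8 of 17 genes of the aspartyl protease class (asp) rose at 0 days, 11 at 14 days and 9 at 4 months, and none fell. Their medians were 0.44, 0.61 and 0.77, beside the 16.0%, 8.99% and 7.08% of all probe sets called. asp-16 rose by 1.81, 2.19 and 1.67 at the 3 times (1.18e-04, 3.13e-05 and 0.00106).

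Markers of some tissues differed between the soils, where 16.0%, 8.99% and 7.08% of all probe sets were called at the 3 times. Of 8 intestine markers 6 rose with nZVI at 0 days, 3 at 14 days and 3 at 4 months, among them the peptide transporter gene pept-1 (1.91, adjusted p = 1.67e-05, at 0 days) and the gut esterase gene ges-1 (1.40, 1.15 and 1.19 at the 3 times). The intestinal transcription factor elt-2 was not called (0.23, -0.56 and 0.02, adjusted p = 0.441, 0.0589 and 0.960). The mean log2 signal of the intestine markers ran over the arrays from 8.56 to 8.83, 8.50 to 8.89 and 8.33 to 8.44 in nZVI soil at 0 days, 14 days and 4 months, against 7.66 to 7.94, 8.34 to 8.39 and 7.46 to 8.21 in control soil. hrg-6, and hrg-4 on dim signals, fell at 0 days where these markers rose. Of 8 germline markers 4 fell at 0 days, with list means of 7.64 to 8.34 in nZVI soil against 8.64 to 8.80 in control soil, and none was called at 14 days or 4 months. Of 8 hypodermis markers 1 rose and 1 fell at 0 days, 3 rose at 14 days and 2 at 4 months. Of 8 neuron markers 1 fell, at 14 days, and of 8 muscle markers 2, 3 and 2 rose. The part of these shifts in the hrg values was not tested.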

How the data were processed

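RNA of whole worms was measured on 18 C. elegans Gene 1.0 ST arrays, 1 per sample, grouped by the labels into 2 soils at 3 times with 3 replicates each. The deposited table holds log2 signals per probe set. The authors made them with RMA, and the Transcriptome Analysis Console is also named, per the submitters' processing notes (versions not given in the sources used here). As RMA output these deposited log2 values were already background-corrected and quantile-normalised, so none was normalised again, and a shift common to all genes cannot be seen in them.

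The table holds 28387 probe sets, of which 25546 had a single symbol in the platform annotation, 646 several and 2195 none. Symbols were updated through the Entrez number in RefSeq's gene table (25495 matched). hrg-2 was not among the genes named. All values were fitted with limma 3.58.1 in R 4.3.3 (lmFit, contrasts.fit, eBayes), with 1 coefficient per group over all 18 arrays, 13 comparisons, two-sided tests and Benjamini-Hochberg adjustment over all probe sets within a comparison. The scripts were tested on simulated data. The number of arrays limits the precision of every value.

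The 8 genes and the lists were chosen with earlier results of these data known. All 8 are named in every nZVI comparison, of each list the heme trafficking genes and up to 3 called genes with the smallest p per nZVI comparison, and ftn-1, ftn-2, smf-3 and fpn-1.2 were available for side-by-side values. ctl-3, dbl-1 and elt-2 were named after their values were seen. For each member with a span of at least 1, the 3 genes with the most similar pattern are named. The lists were other heme trafficking, DBL-1 signalling, iron storage and transport, globins, catalases and heme peroxidases, mitochondrial heme proteins and heme A synthesis, soluble guanylate cyclases, aspartyl proteases, and markers of intestine, hypodermis, germline, neurons and muscle.

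To check whether the replicate numbers in the labels pair the arrays, each array's deviation from its group mean was correlated with that of the array of the same number in the other group. Between the soils all 3 exceeded 0.1 only at 4 months (0.104 to 0.374), and between times only for nZVI soil at 4 months against 14 days (0.108 to 0.209). No pair of arrays shared more than 0.109% of values. Alternatives were a fit to only the groups compared, median centring, a trended and robust spread, array weights, a filter keeping the 15849 probe sets above the overall median in at least 3 arrays, an unadjusted p under 0.05 with at least 2-fold change, the replicate block and leaving out each array. Leaving out control arrays 1 and 3 at 4 months together was chosen after seeing the data.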

Additional observations from a re-analysis of the deposited data

How the results depend on the processing

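No call of an hrg gene changed direction under any alternative: of 2683 fold changes recomputed, 0 changed sign where either value was called, 45 changed sign with neither called, 54 were newly called and 91 calls were lost. Many of these could not change sign, because the alternative left the fold change itself as it was. This held for the fit to only the groups compared, the trended and robust spread, the filter and the unadjusted rule. It also held for the replicate block and for leaving out an array of a group not compared. With array weights the number of hrg genes called was 3 in place of 1 for control soil at 4 months against 14 days, 4 in place of 2 for nZVI soil at 4 months against both 0 days and 14 days, and 1 and 2 in place of 0 for the differences of the nZVI effect at 14 days and 4 months from 0 days. Within the soils the totals over all probe sets were 9063 in place of 5920, 8109 in place of 6298 and 7084 in place of 2422. For the differences the totals were 1256 in place of 299 and 2490 in place of 1225. For the difference at 4 months from 14 days, where the number of hrg genes stayed at 0, the total was 3818 in place of 387. With only the groups compared in the fit, 1 hrg gene was called in place of 4 for nZVI against control soil at 4 months. There hrg-7 (adjusted p = 0.139), hrg-11.2 (0.0574) and hrg-11.3 (0.0747) were lost, and 382 probe sets were called in place of 2009. The number of hrg genes was 4 in place of 2 for nZVI soil at 4 months against 0 days (7078 probe sets in place of 6298). For control soil at 4 months it was 0 in place of 1 against 0 days (745 in place of 2755) and against 14 days (1947 in place of 5920). With an unadjusted p under 0.05 and at least 2-fold change, 4 hrg genes were called in place of 7 averaged over times (813 probe sets in place of 5709). The number was 1 in place of 2 for nZVI soil at 4 months against 14 days (1060 in place of 2422). For control soil at 4 months it was 0 in place of 1 against 0 days (1137 in place of 2755) and against 14 days (1876 in place of 5920). For the difference at 4 months from 0 days it was 2 in place of 0 (1953 in place of 1225). The filter on dim signals gave 2 in place of 1 for control soil at 4 months against 14 days (5153 probe sets in place of 5920). With the replicate block the number was 2 in place of 1 for control soil at 4 months against 0 days (2362 probe sets in place of 2755). For the difference at 4 months from 0 days it was 1 in place of 0 (1724 in place of 1225). Between the soils at 4 months, where the correlations by replicate number all exceeded 0.1, it stayed at 4 (2573 in place of 2009).

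Without control arrays 1 and 3 at 4 months, a choice made after seeing the data, a lone control array was left at that time. The differences between the soils at 4 months were then 0.26 for hrg-7, 0.91 for hrg-11.2 and 0.84 for hrg-11.3. With all arrays they were 0.99, 1.55 and 1.40. Leaving out single arrays gave 4 to 6 called genes for nZVI against control soil at 0 days, 3 to 5 at 14 days, 3 to 4 at 4 months and 5 to 7 averaged. The totals over all probe sets moved widely in the same fits: 2826 to 5511, 1562 to 2955, 773 to 5415 and 4784 to 6907. The differences of the effect had 0 to 0 (14 days minus 0 days), 0 to 3 (4 months minus 0 days) and 0 to 0 (4 months minus 14 days). Their totals over all probe sets were 155 to 480, 616 to 3464 and 79 to 3769. Within nZVI soil there were 2 to 4 at 14 days against 0 days, 2 to 3 at 4 months against 0 days and 0 to 2 at 4 months against 14 days. Within control soil there were 1 to 4, 0 to 3 and 0 to 4 in the same comparisons. The totals over all probe sets in control soil were 1226 to 4345, 1303 to 5242 and 2773 to 9132. Those in nZVI soil were 1255 to 2944, 4115 to 6922 and at most 4571. Over all probe sets, array weights called 6846 in place of 2552 at 14 days and 3394 in place of 2009 at 4 months between the soils, and the fit to only the groups compared called 382 at 4 months. The cause of these shifts was not tested. The dim signals of hrg-4 and hrg-1 limit what can be read from their small differences.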
